A study of Mus musculus with 8 samples.

Results

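The genes described are 10 that make and accompany the peptide hormones of the islet: the convertases Pcsk1 and Pcsk2, the carboxypeptidase Cpe, the convertase-binding proteins Pcsk1n and Scg5, and the granins Chga, Chgb, Scg2, Scg3 and Vgf. They were taken by name and all 10 were present among the 24421 genes counted in each of the 8 samples. The samples were islet cells of 8-week-old male C57BL/6J mice, 4 from mice without an operation (control) and 4 taken 2 days after 50% partial pancreatectomy (PPTx), each sample pooled from the islets of 1 to 3 mice. Since the splenic side was removed at PPTx, the islets of the PPTx samples came from the remaining pancreas, and the operation and the region of the pancreas cannot be told apart. No label marks a batch, a day or a mouse, so p-values measure the spread between these pooled samples.

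Islet hormones are made as larger precursors and cut in the secretory pathway. Pcsk1 (PC1/3) and Pcsk2 (PC2) cut at pairs of basic residues, and Cpe then trims the basic residues left at the ends. Pcsk1n (proSAAS) can inhibit Pcsk1, Scg5 (7B2) is needed for Pcsk2 to mature, and the granins are acidic proteins that are stored with the hormones in dense-core granules. In alpha cells Pcsk2 releases glucagon from its precursor, while insulin is made with both convertases.

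Promoters of 8 of the 10 genes were matched by symbol in RefSeq (GRCm38.p6, the mm10 build of the files), each running from 250 bases before to 50 bases after the start site, and Cpe and Vgf had no entry. The cAMP response element is a known feature of granin promoters, and the stretches from 100 to 21 bases before the start are shown for the 3 genes that hold the full element TGACGTCA, in capitals, and for Chga, which holds the shorter element TGACG, also in capitals. Scg2 lies on the minus strand and the others on the plus strand, and each is written 5′ to 3′ on its own strand.
Pcsk1, chr13:75089757-75089836: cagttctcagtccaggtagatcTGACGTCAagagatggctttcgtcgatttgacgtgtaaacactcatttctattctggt
Scg2, chr1:79440047-79440126: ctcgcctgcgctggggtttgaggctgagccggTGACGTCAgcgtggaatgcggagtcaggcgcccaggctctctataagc
Chgb, chr2:132781542-132781621: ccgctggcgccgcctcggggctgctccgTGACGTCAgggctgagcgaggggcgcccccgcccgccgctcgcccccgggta
Chga, chr12:102554841-102554920: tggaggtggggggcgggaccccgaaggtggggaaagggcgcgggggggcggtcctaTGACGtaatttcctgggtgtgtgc
The full element was found in 3 of 8 promoters and in 1.79% of the 32851 promoters of the same length. The shorter element, which the full one contains on both strands, was found on either strand in 7 of 8 promoters and in 20.8% of all. It had 1 match in Pcsk2, at -34, and 1 in Scg3, at -30. Scg5 had 3 matches, the first at -175 and the last 40 bases after the start, and Pcsk1n had none. The motif TATAAA was found in 1 of 8 promoters, that of Chga, 5 bases after the start, and in 13.6% of all. A match is a description of these letters and not of binding.

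Cells with 100 to 3000 genes and 100 to 20000 unique molecular identifiers (UMIs) were kept, which left 1232 of 1240 cells, 520 from control and 712 from PPTx samples. Cells were classed by the share of their UMIs taken by hormones. Beta cells had at least 20% insulin (Ins1 and Ins2) and under 5% of Gcg, Sst and Ppy each. Alpha, delta and PP cells had at least 5% Gcg, Sst or Ppy, at least 3 times each of the other two, and under 20% insulin. This gave 923 beta, 111 alpha, 10 delta and 126 PP cells. A further 46 cells of mixed hormone content and 16 with little hormone entered no comparison, and no doublet caller was run. Among markers not used for the classes, Iapp was at 49107 CPM (counts per unit of total UMIs, scaled to an equal total for each sum) in beta and 1824 CPM in alpha cells. Mafa was nearly absent from beta cells (2 UMIs), and of the PP markers only Pyy, at 113027 CPM, was detected at depth, with 1 UMI of Fxyd2 and 0 of Aqp3. The total per sample ran from 236645 to 1580152 UMIs, with a median per cell of 6136 UMIs in beta, 3976 in alpha, 5206 in PP and 2845 in delta cells. Alpha cells were 9.23% to 27.8% of the cells in control samples and 0.633% to 3.70% in PPTx samples, whereas PP cells were 3.08% to 8.82% and 9.49% to 15.3%. Only 1 barcode occurred in more than 1 sample.

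The 10 genes together took 2.16% ± 0.131 (SD, n = 8 samples) of the UMIs of beta cells, 2.62% ± 0.108 (SD, n = 6) in alpha cells and 1.66% ± 0.243 (SD, n = 7) in PP cells. For these shares, and wherever hormone UMIs are set apart below, the hormones are Ins1, Ins2, Gcg, Sst, Ppy, Pyy, Iapp and Ghrl. Hormones took about as much of the total in beta cells (64.2% ± 2.90) as in PP cells (63.2% ± 2.96). They took less in alpha cells (48.2% ± 1.96), which raises every other gene of alpha cells on a per-total scale. Of the UMIs that were not hormone, the 10 genes took 6.04% ± 0.360 (SD, n = 8) in beta, 5.06% ± 0.403 (SD, n = 6) in alpha and 4.51% ± 0.472 (SD, n = 7) in PP cells. Levels below are CPM of all UMIs, summed over the cells of a sample and class where at least 5 such cells were present. Counts are of transcript ends, so levels were compared for the same gene and not between genes. Fold changes and tests are from edgeR with TMM scaling, the quasi-likelihood test and Benjamini-Hochberg adjustment over all genes tested, which puts the median gene near no change. The plot of levels by class shows each sample.

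**Figure D1:**
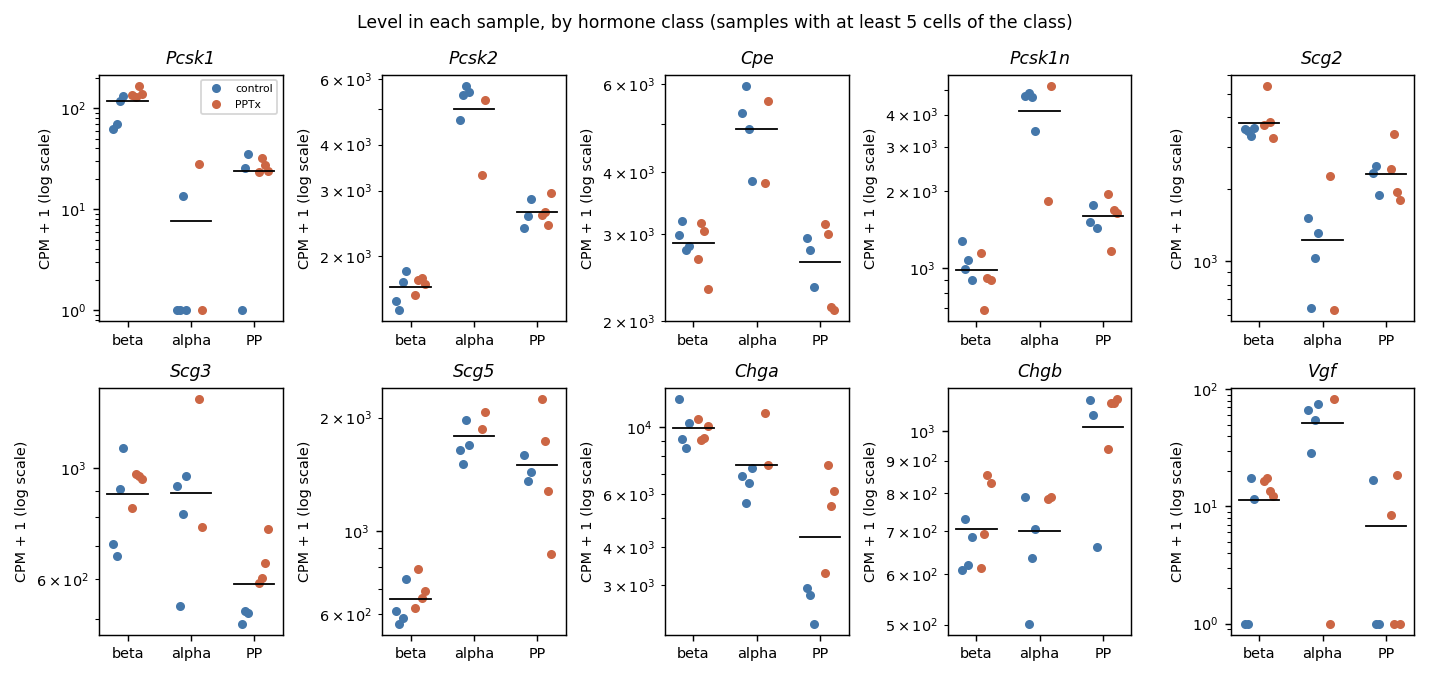
Level of each of the 10 genes in beta, alpha and PP cells, as CPM + 1 on a log axis; each point is 1 sample (blue control, orange PPTx) and the line is the mean over samples. Pcsk1 was highest in beta cells and at 0 in 4 of 6 alpha samples, while Pcsk2, Pcsk1n and Scg5 were higher in alpha and PP than in beta cells in each sample.

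Alpha and beta cells differed in 9 of the 10 genes on the TMM scale, with 4 higher and 5 lower in alpha cells. The comparison was made within the 6 samples with at least 5 cells of both classes and called 23.2% of the 4152 genes tested (8.48% higher and 14.7% lower). Of the calls 36.5% were higher, against 81.5% with library totals in place of TMM, which moved the median of all genes from -0.05 to 0.56 on the log2 scale, so changes are relative to that median. The alpha cells of PPTx 2, 6 in number, stood apart, with beta markers summing to 12322 CPM against 501 to 1470 CPM in the other alpha samples, and had the lowest Pcsk2 and Pcsk1n and the highest Chga and Scg3 of the 6. Of the 6, 1 cell with Chga at 2% or more of its UMIs had Iapp, a beta marker, at 46958 CPM, against 1701 CPM in the rest. The part of the beta markers in the results was not tested. Without PPTx replicate 2 the same count of 9 members was called. Pcsk1 was at 0 CPM in 4 of 6 alpha samples and at most at 27.0 CPM, against a lowest, median and highest of 61.2, 122 and 166 CPM in the beta cells of these samples. The groups did not overlap. The log2 fold change was -4.29 ± 0.50 (SE, adjusted p = 3.5e-16) and rests on 4 UMIs in alpha cells against 616 in beta cells. A Pcsk1 UMI was found in 4.50% of alpha and 45.2% of beta cells, and in 2.30% and 27.1% after thinning each cell to 2800 UMIs, which left out 24 alpha and 92 beta cells. Whether the Pcsk1 UMIs of alpha cells came from RNA free in the droplets was not tested, and Pcsk1 in alpha cells is not read as expression.

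Pcsk2 ran the other way. It lay at 3316, 5351 and 5767 CPM (lowest, median and highest of 6 samples) in alpha cells and at 1423, 1706 and 1817 CPM in beta cells, and was higher in alpha cells in 6 of 6 samples without overlap (log2 fold change 0.92 ± 0.18, adjusted p = 6.3e-06). Cpe was at 3802, 5069 and 5957 CPM in alpha cells and 2784, 3006 and 3181 CPM in beta cells. On this scale Cpe did not overlap between the classes, yet the TMM-scaled log2 fold change was 0.01 ± 0.19 (95% interval -0.35 to 0.38, adjusted p = 0.97). With library totals in place of TMM it was 0.70 (adjusted p = 0.00078). Per UMIs outside hormones it was at 7062, 9863 and 11377 CPM in alpha and 7522, 8183 and 9393 CPM in beta cells, higher in alpha cells in 4 of 6 samples, and these ranges overlapped.

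Both binding proteins were also higher in alpha cells. Pcsk1n was at 1833, 4710 and 5192 CPM in alpha cells and 683, 950 and 1279 CPM in beta cells, with no overlap (log2 fold change 1.38 ± 0.17, adjusted p = 6.7e-14). For Scg5 the values were 1503, 1776 and 2066 CPM and 566, 638 and 790 CPM, again apart in every sample (0.80 ± 0.17, adjusted p = 1.9e-05). The Scg5 call was lost without a filter on low counts (0.53, adjusted p = 0.085) and on thinned cells (0.56, adjusted p = 0.135).

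On the TMM scale the granins other than Vgf were lower in alpha cells. Scg2 lay at 625, 1175 and 2265 CPM in alpha cells and at 3320, 3580 and 5394 CPM in beta cells without overlap (log2 fold change -2.39 ± 0.20, adjusted p = 4.0e-31). Chga, the most abundant of the granin counts, was at 5623, 7106 and 11109 CPM against 8528, 9160 and 12370 CPM, lower in 5 of 6 samples, PPTx 2 being the other (-1.07 ± 0.23, adjusted p = 6.1e-05). Without PPTx replicate 2 the Chga change was -1.20. Scg3 (-0.67 ± 0.17, adjusted p = 0.0010) and Chgb (-0.64 ± 0.18, adjusted p = 0.0024) overlapped between the classes in CPM. In CPM Scg3 was lower in alpha cells in 4 of 6 samples (529, 864 and 1375 against 665, 935 and 1096 CPM), and Chgb was higher in 4 of 6 (501, 743 and 788 against 607, 687 and 854 CPM). With library totals, the calls of Chga (-0.39), Scg3 (-0.03) and Chgb (0.01) were lost, and Chgb turned sign. Vgf was at 0, 59.9 and 81.6 CPM in alpha cells and at 0, 11.6 and 16.5 CPM in beta cells (1.56 ± 0.51, adjusted p = 0.012). That call was lost without control replicate 3 (1.92, adjusted p = 0.0752), without control replicate 4 (1.35, adjusted p = 0.102) and on thinned cells (1.71, adjusted p = 0.108).

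**Figure D2:**
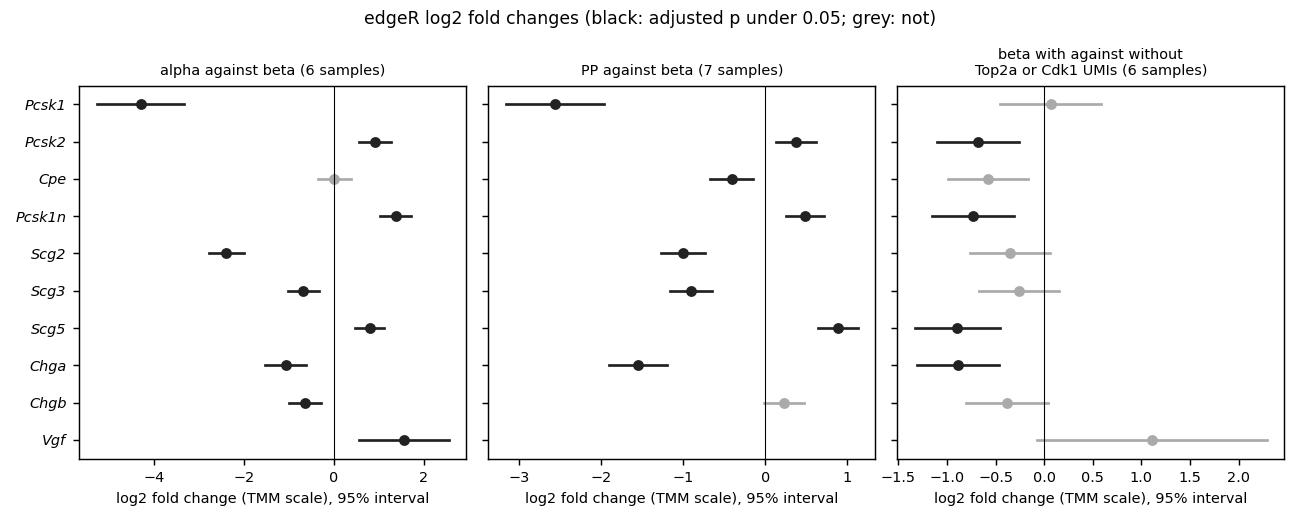
Log2 fold change of each gene with its 95% interval from edgeR, for alpha against beta cells, PP against beta cells and beta cells with against without a Top2a or Cdk1 UMI; black marks an adjusted p under 0.05. Pcsk1 lies furthest below 0 in the first and second panels and near 0 in the third, and Vgf could not be tested in PP cells.

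PP and beta cells differed in 8 of the 9 genes tested, 3 higher and 5 lower in PP cells. The comparison shares its beta cells with that of alpha cells, was made in 7 samples and called 24% of 5056 genes (7.95% higher, 16% lower). Of these calls 33.1% were higher, against 44.4% with relative log expression, 48.9% with DESeq2 and 54.6% with library totals. Pcsk1 was at 0, 24.6 and 34.1 CPM in PP and at 69.1, 131 and 166 CPM in beta cells, apart in every sample (log2 fold change -2.56 ± 0.30, adjusted p = 2.2e-15). Pcsk2 was at 2376, 2576 and 2950 CPM in PP and at 1423, 1694 and 1817 CPM in beta cells, also without overlap (0.37 ± 0.12, adjusted p = 0.015). The PP level of Pcsk2 was thus above beta and below alpha cells. Its call was lost on thinned cells (0.33, adjusted p = 0.086) and without a filter on low counts (0.19, adjusted p = 0.44).

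Scg5 rose most among the members in PP cells, from 566, 664 and 790 CPM in beta cells to 869, 1431 and 2241 CPM (0.89 ± 0.12, adjusted p = 1.6e-11). Pcsk1n rose from 683, 912 and 1149 CPM to 1169, 1647 and 1950 CPM (0.48 ± 0.12, adjusted p = 5.0e-04), a call lost without the filter (0.30, adjusted p = 0.11). In both the groups were apart in CPM. Cpe was at 2104, 2783 and 3134 CPM in PP and 2327, 2828 and 3181 CPM in beta cells (-0.41 ± 0.13, adjusted p = 0.013). These ranges overlapped, and the Cpe call was lost under DESeq2 (-0.26, adjusted p = 0.0615), under both other scalings, on thinned cells, with at least 10 cells per sum and without control replicate 2, 3 or 4 or PPTx replicate 4 (adjusted p from 0.0552 to 0.0832 for these samples).

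Among the granins, Chga fell furthest in PP cells, to 2237, 3298 and 7512 CPM from 8528, 9168 and 10623 CPM in beta cells (-1.55 ± 0.18, adjusted p = 4.7e-16). Scg2 was at 1807, 2329 and 3386 CPM against 3263, 3587 and 5394 CPM (-1.0 ± 0.14, adjusted p = 1.4e-11) and Scg3 at 488, 588 and 755 CPM against 665, 951 and 1096 CPM (-0.90 ± 0.13, adjusted p = 1.8e-10). Scg2 and Scg3 were lower in PP cells in 7 of 7 samples, although their ranges overlapped. Chgb was at 659, 1106 and 1121 CPM in PP and 611, 691 and 854 CPM in beta cells and was not called (0.23 ± 0.12, adjusted p = 0.19), but was called higher under DESeq2 (0.37, adjusted p = 0.035) and with library totals (0.50). Vgf had 4 UMIs in the PP cells of these samples and was not tested.

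Alpha and PP cells were compared directly in the 5 samples with both, a comparison added after the data were seen, which called 7.65% of 941 genes (4.25% higher and 3.4% lower in alpha cells). Higher calls were 55.6% of these, against 94.2% with library totals. Of 8 members tested, Pcsk2 (0.51 ± 0.15, adjusted p = 0.029) and Pcsk1n (0.88 ± 0.15, adjusted p = 1.6e-04) were higher in alpha cells. Scg2 (-1.52 ± 0.18, adjusted p = 1.7e-06) and Chgb (-0.96 ± 0.16, adjusted p = 1.2e-04) were lower. Cpe (0.41, adjusted p = 0.093), Scg3 (0.27, adjusted p = 0.39), Scg5 (-0.14, adjusted p = 0.67) and Chga (0.53, adjusted p = 0.072) were not called. The Pcsk2 call was lost under DESeq2 (adjusted p = 0.310), on thinned cells, without the filter and without control replicate 2, 3 or 4 or PPTx replicate 3 (adjusted p from 0.0512 to 0.167). Without PPTx replicate 2, Cpe (0.48, adjusted p = 0.0328) and Chga (0.59, adjusted p = 0.0434) were called, and Chga also without PPTx replicate 3 (0.70, adjusted p = 0.0176). Both were called as well with hormone UMIs removed (Cpe 0.47, adjusted p = 0.024, and Chga 0.59, adjusted p = 0.014), with stricter class limits, with looser class limits and with library totals (Cpe 0.93 and Chga 1.05), and Chga with relative log expression (0.56, adjusted p = 0.049). With library totals Scg3 was called higher (0.77, adjusted p = 0.0014) and Chgb was lost (-0.44, adjusted p = 0.053). The Pcsk1n and Chgb calls were lost without the filter.

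The 10 delta cells came from 6 samples, none with 5, and gave no test. Pooled, Chgb was at 5001 CPM (exact Poisson 95% interval 4236 to 5866, covering counting error only), against 702 CPM in pooled beta cells. Pcsk2 was at 3643 CPM (2994 to 4391) and Scg2 at 4372 CPM (3658 to 5185) in delta cells. Pcsk1 rested on 5 UMIs in 3 cells (166 CPM, 53.8 to 386). Cpe was at 2849 CPM, Pcsk1n at 1656, Scg3 at 1060, Scg5 at 1259 and Chga at 8479 CPM, and Vgf was at 0 UMIs, which allows up to 122 CPM.

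A ratio of 2 genes in the same cells does not use the total of UMIs. The log2 ratio of Pcsk1 to Pcsk2 UMIs (0.5 added to each) averaged -3.95 in beta and -8.24 in alpha cells, a difference of -4.29 ± 1.46 (SD, n = 6), and in 6 of 6 samples alpha cells were lower (two-sided exact permutation of signs, p = 0.031, the smallest that 6 samples allow). As 4 of the 6 alpha samples had 0 Pcsk1 UMIs, the size of both alpha ratios with Pcsk1 depends on the 0.5 added. Against PP cells the difference was -2.85 ± 0.55 (SD, n = 7; exact permutation p = 0.016, the smallest possible). The ratio of Pcsk1n to Pcsk1 was higher by 4.74 ± 1.54 in alpha (6 of 6 samples, exact permutation p = 0.031) and by 2.95 ± 0.50 in PP cells (7 of 7, exact permutation p = 0.016). These 4 tests had an adjusted p of 0.056 over the 9 ratio tests made. Scg5 to Pcsk2 differed by -0.13 ± 0.30 in alpha (exact permutation p = 0.34, adjusted 0.39) and by 0.47 ± 0.49 in PP cells (higher in 6 of 7, exact permutation p = 0.047, adjusted 0.070).

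Of 9 further processing enzymes, 3 were tested in alpha and 5 in PP cells against beta cells. Pam, which amidates peptide ends, was higher in alpha cells (0.63 ± 0.19, adjusted p = 0.0069), and Ctsl, a cathepsin, in PP cells (0.79 ± 0.19, adjusted p = 3.9e-04). Of 14 granule genes, all tested, 1 was higher and 5 were lower in alpha cells and 1 was higher and 6 were lower in PP cells. The median log2 fold change of this list was -0.69 in alpha and -0.51 in PP cells, against -0.05 and -0.10 over all genes tested. Resp18, a granule protein, was the 1 higher gene in both (1.61 ± 0.19 in alpha, 1.37 ± 0.13 in PP cells). Sytl4, a docking protein, was the lowest in both (-4.72 ± 0.43 and -4.56 ± 0.35). The zinc transporter Slc30a8 was lower in PP cells (-3.04 ± 0.20, adjusted p = 5.0e-49) and not called in alpha cells (-0.44 ± 0.18, adjusted p = 0.070), and was higher in alpha than in PP cells in the direct comparison (2.50 ± 0.32, adjusted p = 3.5e-06).

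Over the 21 sums per sample and class, the genes whose log2 CPM ran most like a member's were, among 1722 genes, Prss53 (Pearson r = 0.861), Iapp (0.839) and Mdh1 (0.837) for Pcsk1, and Aplp1 (0.959), Gcg (0.956) and Gnas (0.954) for Pcsk2. For Chga they were Insrr (0.825), Il1r1 (0.825) and Ero1lb (0.814), and for Vgf Ptma (0.680), Psmc4 (0.635) and Hspa8 (0.631). The sums of a sample share its library, and these values describe likeness only.

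On the TMM scale, Pcsk2, Pcsk1n, Scg5 and Chga were lower in beta cells with a UMI of Top2a or Cdk1, genes of dividing cells. These cells were compared with the other beta cells of the same samples, and Pcsk1 was not called. The count of called members was 2 with relative log expression and 1 (Chga) under DESeq2 and with library totals. It was 0 with at least 5 such cells per sum and 8 on thinned cells. There were 45 such cells among 923, 4.88% against 1.21% of alpha, delta and PP cells, with median depths of 6136 and 4315 UMIs. Within beta cells, those with such a UMI were deeper (7357 against 6090 UMIs). Replication markers not used to pick them summed to 318 to 1198 CPM in these cells and to 2.4 to 18.5 CPM in the rest of these samples. The comparison used 6 samples with at least 3 such cells and called 6.21% of 4896 genes (3.33% higher and 2.88% lower), and the median over all genes was -0.20.

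Because hormones weigh differently in the cells compared, levels are given here as CPM of the UMIs that are not hormone. Chga was at 14751, 17911 and 24465 (lowest, median and highest sample) in cells with a Top2a or Cdk1 UMI and at 21760, 28298 and 30549 in those without. It was lower in 6 of 6 samples although the ranges overlapped (log2 fold change -0.89 ± 0.21, adjusted p = 0.0014). Scg5, at 669, 1252 and 1816 against 1787, 1862 and 2189, was lower in 6 of 6 samples (-0.89 ± 0.22, adjusted p = 0.0024).

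Pcsk1n was at 803, 2180 and 2832 against 1656, 2658 and 3322, lower in 6 of 6 (-0.74 ± 0.22, adjusted p = 0.015). Pcsk2 was at 2432, 4009 and 4839 against 4074, 4895 and 5369, lower in 5 of 6 (-0.68 ± 0.21, adjusted p = 0.027). Of these, PPTx 1 was nearly level (4417 against 4418). In CPM of all UMIs Pcsk2 was higher in control 3 (1721 against 1693), PPTx 1 (1730 against 1551) and PPTx 2 (1966 against 1701). It was lower in control 4 (991 against 1842), PPTx 3 (1398 against 1777) and PPTx 4 (1085 against 1698). Not called were Pcsk1 (0.07, 95% interval -0.45 to 0.59), Cpe (-0.58, adjusted p = 0.081), Scg2 (-0.35), Scg3 (-0.26), Chgb (-0.39) and Vgf (1.11, 12 UMIs in the first cells). With library totals the sign of Scg2 (0.16), Scg3 (0.22) and Chgb (0.12) turned.

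These calls moved with the scale and the cells. The count of called members was 4 with TMM, 2 with relative log expression, 1 with DESeq2 (Chga) and 1 with library totals (Chga), and the split of all called genes moved from 53.6% higher with TMM to 77.4%, 89.3% and 91.9%. It was 8 on thinned cells, where 10.3% of the called genes were higher and the median of all genes was -0.67, and 0 with at least 5 such cells per sum, where Chga was at -0.76 (adjusted p = 0.11). Without control replicate 3, control replicate 4 or PPTx replicate 4, the calls of Pcsk2 and Pcsk1n were lost. The Pcsk2 call was also lost where cells had at least 2 UMIs of 10 replication genes (-0.62, adjusted p = 0.095). Cpe was called with hormone UMIs removed (-0.57, adjusted p = 0.045), without the filter (-0.83, adjusted p = 0.0039) and on thinned cells (-1.15, adjusted p = 6.1e-04). In the thinned cells pooled over samples, the means with and without a Top2a or Cdk1 UMI were 8.37 and 7.99 UMIs for Cpe. For Scg2, also called lower there (-0.92, adjusted p = 0.0078), they were 14.1 and 10.8 UMIs. The other members called there had a lower mean with such a UMI. Of the granule list, 0 of 14 genes were higher and 3 were lower (Rab37 -1.36 ± 0.43, Resp18 -0.86 ± 0.21 and Ptprn2 -0.86 ± 0.25), with a median of -0.59.

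**Figure D3:**
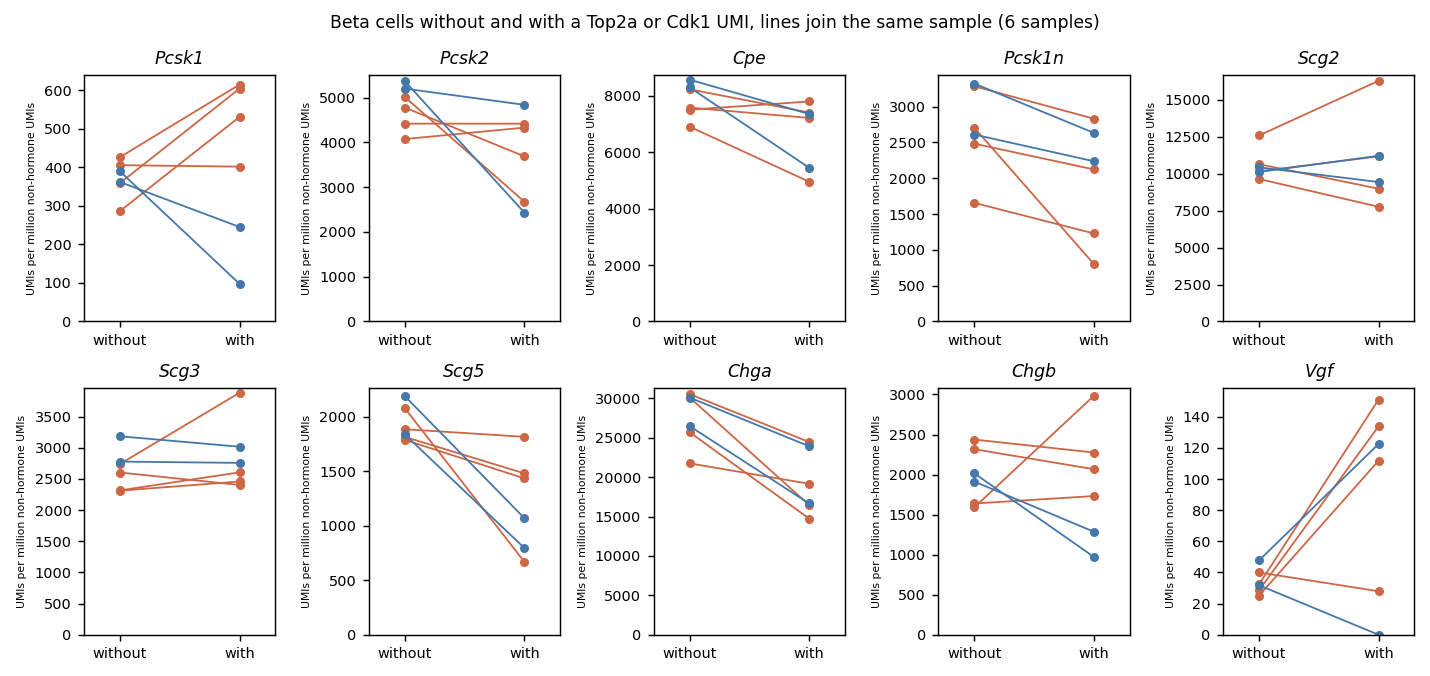
CPM of the UMIs outside hormones in the beta cells of 6 samples, without and with a Top2a or Cdk1 UMI; each line joins the 2 sums of 1 sample (blue control, orange PPTx). Chga, Scg5 and Pcsk1n go down in 6 of 6 samples. Pcsk1 goes up in 3 (PPTx 1, 2 and 3) and down in 3 (control 3, control 4 and, from 405 to 402, PPTx 4). In the cells with such a UMI, Pcsk1 rests on 4 UMIs in control 3 and 1 in control 4. Whether its direction differs between control and PPTx was not tested.

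Between PPTx and control beta cells, 0 of 10 members were called by edgeR, where 0.377% of 5830 genes were (0.274% higher and 0.103% lower), and 0 had an unadjusted p under 0.05. DESeq2 also called 0. Pcsk1 was at 61.2, 69.1, 117 and 131 CPM in control 1 to 4 and at 136, 127, 166 and 138 CPM in PPTx 1 to 4. The ranges overlapped by 1 sample of each group (log2 fold change 0.38 ± 0.20, 95% interval -0.04 to 0.79, adjusted p = 0.57). Control 1 and 2, with the lowest Pcsk1, also had the fewest beta cells (54 and 76).

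Pcsk2 was at 1509, 1423, 1694 and 1817 CPM in control and 1566, 1718, 1739 and 1677 CPM in PPTx samples (-0.04 ± 0.14, 95% interval -0.31 to 0.24). Pcsk1n was at 1279, 989, 1077 and 896 CPM in control and 1149, 683, 912 and 896 CPM in PPTx samples (-0.28 ± 0.16, adjusted p = 0.605). Both sets overlapped. The log2 ratio of Pcsk1 to Pcsk2 was -4.57, -4.34, -3.86 and -3.79 in control and -3.52, -3.75, -3.39 and -3.59 in PPTx samples. These did not overlap, and the difference of 0.58 had an exact permutation p of 0.029, the smallest that 4 against 4 allow, and an adjusted p of 0.056. Without control replicate 1 it was 0.43. Pcsk1n to Pcsk1 was lower by -0.87 (exact permutation p = 0.057, adjusted 0.073), and Scg5 to Pcsk2 differed by 0.08 (exact permutation p = 0.43).

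The remaining members differed little between the groups in beta cells. Cpe was at -0.17 (95% interval -0.43 to 0.09) on the log2 scale. Per UMIs outside hormones its groups did not overlap (6822 to 8144 CPM in PPTx, 8168 to 9393 CPM in control samples), but in CPM of all UMIs they overlapped. The share of all genes without overlap is not given. On the same log2 scale Scg2 was at 0.11 (-0.16 to 0.37), Scg3 at 0.03 (-0.28 to 0.35) and Scg5 at 0.04 (-0.24 to 0.33). Chga was at -0.12 (-0.40 to 0.16), Chgb at 0.09 (-0.21 to 0.39) and Vgf at 0.32 (-0.59 to 1.24). The intervals of Pcsk2 and of these, other than that of Vgf, exclude a change of 1 on the log2 scale. Of the 9 processing enzymes 5 were tested and 0 called, and of the 14 granule genes 0 were called and 4 had an unadjusted p under 0.05 (Ptprn, Nucb2, Rab37 and Hid1).

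**Figure D4:**
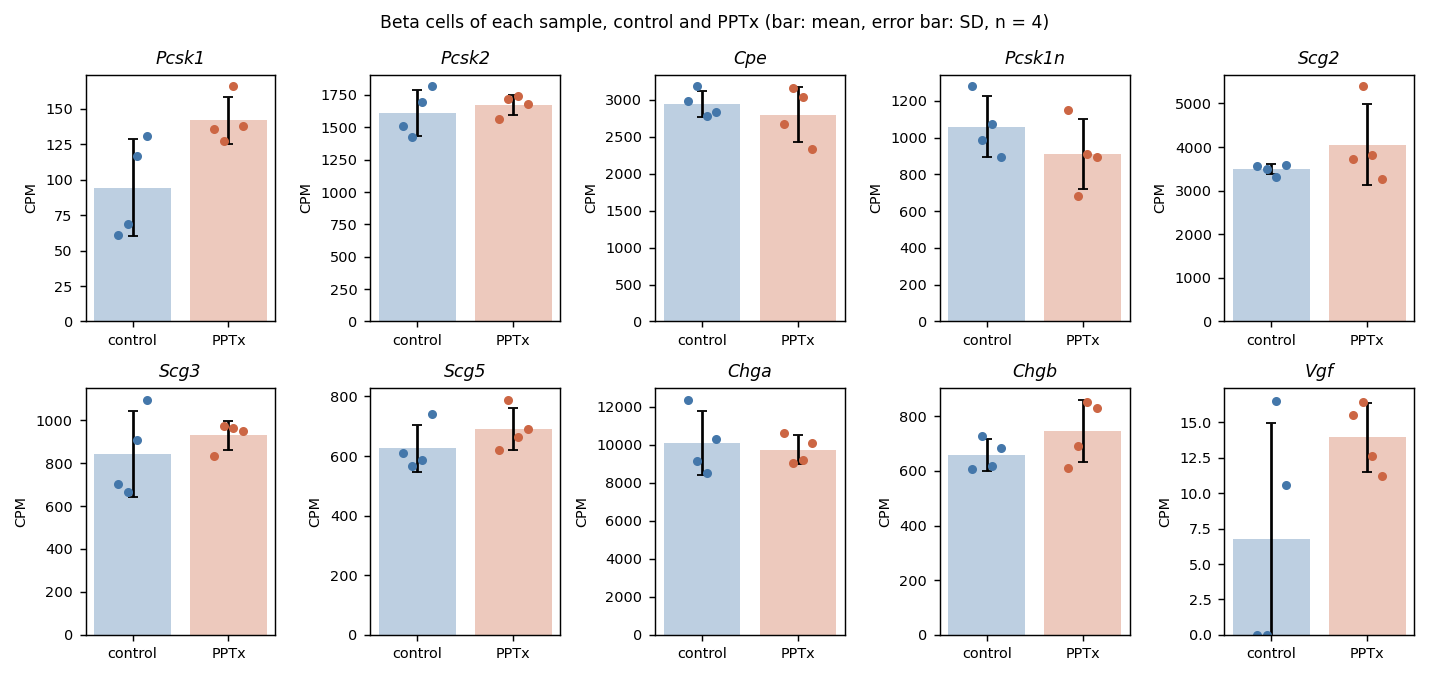
CPM of each gene in the beta cells of the 4 control and 4 PPTx samples; points are samples, bars the mean and error bars the SD. The groups overlap for each of the 10 genes, by 1 sample each for Pcsk1.

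In PP cells, Chga was higher after PPTx without passing the test. It was at 2942, 2783 and 2237 CPM in control 2 to 4, which had 9, 6 and 13 PP cells, and at 3298, 7512, 5466 and 6130 CPM in PPTx 1 to 4. The groups did not overlap, but the share of all genes without overlap is not given, so this alone is not read as a difference. The log2 fold change was 1.02 ± 0.31 with an unadjusted edgeR p of 0.0034 and an adjusted p of 0.62, and 0 of 8 members were called by edgeR and by DESeq2 where 0.154% of 651 genes were. It was called without a filter on low counts (1.21, adjusted p = 0.029), with the replicate number as a block (1.21, adjusted p = 0.035) and without PPTx replicate 1 (1.22, adjusted p = 0.0064). Against the change in beta cells the difference was 1.12 ± 0.31 (edgeR interaction, unadjusted p = 3.5e-04, adjusted p = 0.41), and 0 of 9 members were called in that test, where 0.0198% of 5056 genes were. It was called with hormone UMIs removed (1.16, adjusted p = 4.8e-05), without a filter on low counts (1.22, adjusted p = 0.039) and without PPTx replicate 1 (1.43, adjusted p = 0.0036). DESeq2 called 0 there too, and 1 of the 9 members, Chga, had an unadjusted p under 0.05.

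The other members tested in PP cells were at -0.02 (Pcsk2), -0.11 (Cpe), 0.00 (Pcsk1n), 0.04 (Scg2), 0.29 (Scg3), 0.03 (Scg5) and 0.14 (Chgb), with SEs of 0.24 to 0.27. Scg3, at 488, 517 and 511 CPM in control and 588, 602, 646 and 755 CPM in PPTx samples, did not overlap between the groups (adjusted p = 0.93). Here too the share of all genes without overlap is not given. Differences from the change in beta cells were 0.20 for Pcsk1, 0.14 for Pcsk2, 0.17 for Cpe, 0.31 for Pcsk1n, 0.03 for Scg2, 0.43 for Scg3, 0.09 for Scg5 and 0.26 for Chgb, against 0.14 over all genes. In alpha cells only 2 PPTx samples had at least 5 cells, under the minimum of 3 set for a fit, so PPTx was not tested there.

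A few PP cells held 1496 of the 3532 Chga UMIs of the class. A limit of 2% of a cell's UMIs, set after the values were seen, held 9 of 96 PP cells of PPTx samples (0, 6, 2 and 1 in PPTx 1 to 4) and 0 of 30 of control samples, which allows a share of up to 10% (counting of cells only, and cells of a sample are not replicates). The median cell was at 2630 to 3400 CPM in PPTx and at 1844 to 2699 CPM in control 2 to 4, and these ranges overlapped. As a description with no test, these 9 cells had 49233 CPM of Chga against 2978 CPM in the other 117, and also more Iapp (75824 against 1864 CPM), Scg2 (6319 against 2363 CPM), Chgb (2468 against 958 CPM) and Pcsk2 (4871 against 2496 CPM). Ppy was lower in them (195386 against 501434 CPM), Ins2 higher (24485 against 8093 CPM), and their median depth was 3369 against 5410 UMIs.

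Beta markers, Iapp among them, summed to 1742 to 10194 CPM in the PP cells of PPTx samples and to 567 to 784 CPM in those of control samples, with 1 to 4 and 3 of 7 markers at 0. Nearly all of this was Iapp, with 3578 UMIs in PP cells against 67 of G6pc2, 29 of Nkx6-1, 8 of Ucn3, 5 of Slc2a2, 1 of Pdx1 and 0 of Mafa, and the 9 cells held 2304 of the Iapp UMIs. Acinar markers summed to 26.5 to 114 CPM and 0 to 15.7 CPM, with 1 to 3 and 4 to 5 of 5 at 0. Their part in the Chga result was not tested. The plot of Chga in single cells shows the 9 cells above the bulk of the PP cells.

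**Figure D5:**
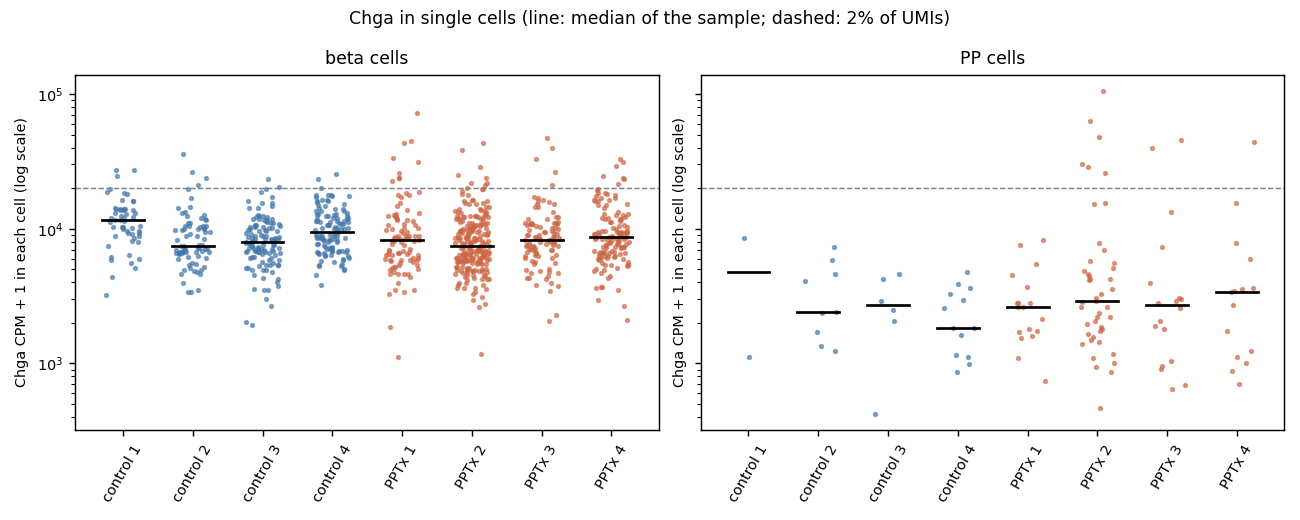
Chga in each beta cell (left) and PP cell (right) by sample, as CPM + 1 on a log axis; lines are the sample medians and the dashed line is 2% of a cell's UMIs. In PP cells 9 cells lie above the dashed line, all from PPTx 2, 3 and 4, and in beta cells 41 lie above it, from 8 of 8 samples.

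Between beta cells, the variance over the mean was highest for Chga among the members. On cells thinned to 2800 UMIs its variance over its mean was 8.83 (median of 8 samples, 5.23 to 26.1), against a median of 2.19 for Scg2 and from 0.972 (Vgf) to 1.59 (Pcsk2) for the rest. The 10th, 50th and 90th percentile of beta cells were 13, 24 and 46 Chga UMIs. They were 5, 10 and 18 UMIs for Scg2 and 2, 4 and 8 UMIs for Pcsk2, and spread relative to the mean was not tested. Counts with a low mean have a ratio near that of counting error, and Chga had the highest mean of the 10 (27.8 UMIs, against 10.9 for Scg2).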

How the data were processed

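Islet cells of 4 control and 4 PPTx samples were profiled in droplets. Reads had been mapped by the authors on mm10 with UMIs counted by Cell Ranger, and the deposited values are raw counts per gene and cell, without normalization. Both sources name a ddSEQ isolator, but the study's methods give a SureCell library kit and the labels a Chromium one. A filtering step before deposit is named, and its limits are not given in the sources used here. CPM were computed here from summed counts. The members and gene lists were chosen with earlier results of these data known, and all members were to be named in each comparison. Sums per sample and class went into edgeR 4.0.16, with its expression filter, TMM, the quasi-likelihood test, the sample as block between classes and a limit of 0.05 on the adjusted p, with DESeq2 1.42.0 as an alternative. Ratios used exact permutation tests in scipy 1.17.1. All tests are two-sided. Intervals cover counting error only where Poisson is named. The edgeR script was tested on simulated data. Groups came from the labels. Alternatives changed the test, scaling, filters, class limits, depth and samples. One result is not reported here.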

Additional observations from a re-analysis of the deposited data

Results flagged for a closer look

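Of 70 groups of samples searched for a value far from the others, 5 held one, and chance alone gives about 1 in 20. Pcsk1 in alpha cells was at 12.5 CPM in control 3 (3 UMIs in 52 cells) and at 0 in the other 3 control samples (6, 11 and 26 cells). Any count would be flagged beside values that are all 0, so the rate of 1 in 20 does not describe this group. Pcsk1 in beta cells with a Top2a or Cdk1 UMI was at 163 CPM in PPTx 4, against 233 to 241 CPM in the other PPTx samples. Pcsk1n in alpha cells was at 3465 CPM in control 4, against 4693 to 4843 CPM. Scg3 in beta cells was at 831 CPM in PPTx 1, against 951 to 975 CPM, and Chgb in PP cells was at 938 CPM in PPTx 1, against 1106 to 1121 CPM.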

How the results depend on the processing

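The count of members called kept within 1.5 times its value for alpha against beta, PP against beta and PPTx against control in beta cells (0 under each alternative run). For alpha against PP cells it fell from 4 to 1 without a filter, was 3 to 6 under the others and 3 to 6 leaving out 1 sample at a time. For beta cells with a Top2a or Cdk1 UMI it went from 4 to 1 under DESeq2, 2 with relative log expression, 1 with library totals, 8 on thinned cells and 0 with at least 5 such cells per sum, and from 2 to 4 leaving out 1 sample at a time. For PPTx in PP cells it went from 0 to 1, Chga, without a filter, with the replicate block and, leaving out 1 sample at a time (0 to 1), without PPTx replicate 1. For the PPTx effect in PP against beta cells it went from 0 to 1, also Chga, without hormone UMIs, without a filter and without PPTx replicate 1 (0 to 1). The 9 ratios kept their sign. Signs turned as follows, on the log2 scale, and the cause was not tested. For alpha against beta cells, Cpe was at -0.0097 without hormone UMIs, -0.25 without a filter and -0.19 on thinned cells, Chgb was at 0.0058 with library totals. Leaving out 1 sample at a time moved Cpe from -0.029 to 0.10. For alpha against PP cells, Scg5 was at 0.39 with library totals. For beta cells with against without a Top2a or Cdk1 UMI, Pcsk1 was at -0.19 without a filter and -0.93 on thinned cells, Scg2 was at 0.16 with library totals, Scg3 was at 0.0072 under DESeq2, 0.0065 with relative log expression and 0.22 with library totals, Chgb was at 0.12 with library totals and 0.019 with more cells per sum. Leaving out 1 sample at a time moved Pcsk1 from -0.11 to 0.30. For PPTx against control in beta cells, Pcsk2 was at 0.057 with library totals. Leaving out 1 sample at a time moved Pcsk2 from -0.089 to 0.037, Scg3 from -0.062 to 0.20, Scg5 from -0.0015 to 0.15, Chgb from -0.010 to 0.19. For PPTx against control in PP cells, Pcsk2 was at 0.046 with library totals, 0.13 without a filter and 0.0030 with stricter class limits, Cpe was at 0.11 without a filter, Pcsk1n was at -0.0016 under DESeq2, -0.0015 with relative log expression, -0.0023 without hormone UMIs, -0.020 with looser class limits and -0.14 with the replicate block, Scg2 was at -0.17 on thinned cells, Scg5 was at -0.26 with the replicate block. Leaving out 1 sample at a time moved Pcsk2 from -0.078 to 0.012, Pcsk1n from -0.11 to 0.14, Scg2 from -0.15 to 0.14, Scg5 from -0.19 to 0.19, Chgb from -0.11 to 0.32. For the PPTx effect in PP against beta cells, Pcsk2 was at -0.0090 with library totals, Scg2 was at -0.035 under DESeq2, -0.035 with relative log expression, -0.12 with library totals and -0.096 on thinned cells, Scg5 was at -0.022 under DESeq2 and -0.075 with library totals. Leaving out 1 sample at a time moved Pcsk1 from -0.17 to 1.10, Scg2 from -0.044 to 0.18, Scg5 from -0.14 to 0.38. Of 1069 values of single members under alternatives, 925 kept direction and side of the threshold, 48 lost the call, 33 gained it and 63 turned sign, as given above. Control and PPTx samples with the same number correlated at 0.202, 0.0385, 0.185 and 0.329 in beta cells, not each over 0.1. For control 1, 3 and 4 the PPTx sample of the same number had the highest correlation among the PPTx samples. For control 2 it did not. Whether samples of the same number share a batch was not tested. With the replicate block 55 genes were called in beta cells in place of 22, with 0 members in both. The ratio of Pcsk1 to Pcsk2 then had an exact permutation p of 0.125, the smallest that these pairs allow, and it was higher in the PPTx sample of each pair. Delta against beta cells and PPTx in alpha and delta cells were not fitted, since fewer than 3 samples (per group for PPTx) had enough cells, nor was the alternative of more cells per sum for PPTx in PP cells, for its difference from beta cells and for alpha against PP cells. Few PP cells in control samples and few Pcsk1 and Vgf UMIs outside beta cells limit what depth can show.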

Other observations

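Beta cells with Chga at 2% or more of their UMIs, a limit set after the values were seen, numbered 41 of 923, with 12 of 368 (3.26%) in control and 29 of 555 (5.23%) in PPTx samples. By sample the share ran from 1.64% to 5.56% in control and from 3.57% to 9.28% in PPTx samples, which overlap. Pyy, a hormone of PP cells, was at 8089 CPM in the 41 cells and 200 CPM in the other 882, and was higher in them in 8 of 8 samples. Cd81, a surface protein, was at 308 and 36.7 CPM and was higher in 7 of 8 samples. Ucn3, a gene of mature beta cells, was at 207 and 550 CPM and was lower in 8 of 8. Pcsk1n (1613 against 917 CPM), Chgb (1355 against 676 CPM) and Scg3 (1482 against 902 CPM) were also higher in the 41 cells, while Pcsk1 (156 against 126 CPM) and Scg2 (3888 against 3902 CPM) differed less. Ppy was at 7123 CPM in the 41 cells and 459 CPM in the rest. Insulin took a median of 47.3% of UMIs in them against 60.1%, which raises other genes on a per-total scale. The median depth was 5254 against 6162.5 UMIs. Cells were chosen by Chga, so these values are a description with no test.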
